A study of Mus musculus with 7 samples.

Results

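The amino acid and zinc transporter genes described here are the protein-coding members of 8 solute carrier families, Slc1a, Slc3a, Slc7a, Slc36a, Slc38a and Slc43a for amino acids and Slc30a and Slc39a for zinc. They were chosen by gene symbol and by a total of 50 or more reads over the 7 libraries of a mouse CD4+ T cell RNA-sequencing study. Of the 66 genes that carry such symbols, 46 met the count minimum, among 39017 rows in the table. A further 16 had between 1 and 49 reads, and 4 had no read in any library, so the members were the genes of these families that the cells expressed at a measurable level. The 46 comprised 26 genes of the amino acid families and 20 of the zinc families.

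The libraries came from female C57BL/6 mice with EAE, experimental autoimmune encephalomyelitis, in which T cells against myelin attack the central nervous system. The question was how loss of the histone H3 lysine 27 demethylase gene Kdm6a alters CD4+ T cells. Lymph node cells taken on day 17 were kept for 18 hours with 25 µg/mL of MOG peptide 35-55, a stretch of myelin oligodendrocyte glycoprotein, and CD4+ T cells were then sorted. Both groups carried floxed/floxed Kdm6a. The conditional knockout (cKO) group of 4 libraries (replicates 2, 3, 7 and 12) carried CD4-Cre (+/-), and the wild-type (WT) littermate group of 3 libraries (replicates 10, 14 and 19) was CD4-Cre (-/-). The CD4-Cre transgene is driven by Cd4 regulatory sequence that is active in thymocytes before the CD4 and CD8 lineages separate, so the deletion is not limited to CD4+ cells. Only the cKO group carried Cre, so Cre and deletion cannot be told apart. The labels do not say that each library came from a separate animal, and p-values measure the spread between these libraries.

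A T cell that meets its antigen grows and divides, and it imports amino acids to do so. Glutamine and other neutral amino acids enter through Slc1a5 and the sodium-coupled Slc38a transporters. Leucine and other large neutral amino acids enter through heterodimers of the heavy chain Slc3a2, also called CD98, with a light chain of the Slc7a family such as Slc7a5. These supplies feed the kinase complex mTORC1, which senses amino acids at the lysosome. Zinc is handled by opposed families: Slc39a (ZIP) proteins bring it into the cytosol from outside or from organelles, and Slc30a (ZnT) proteins move it out of the cytosol.

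Total counts ranged from 17910536 to 28697579 per library, and the transporter genes together took 0.24% to 0.264% of the reads of a library. Counts over the whole Kdm6a gene were lower in every cKO library, at 96.3 to 104 CPM (counts scaled to the size of the library) against 113 to 125 in WT (log2 fold change -0.24, SE 0.06, adjusted p = 0.0414). Whole-gene counts cannot show a loss of some exons, and which exons were floxed is unknown here. T cell markers summed to 3245 to 3675 CPM in cKO and 3008 to 3474 in WT. The summed NK and innate lymphoid markers were 102 to 118 CPM in cKO and 51.7 to 80.7 in WT, and the CD8 T cell markers 22.3 to 30.2 and 10.96 to 14.7, without overlap. The genes within these lists differed. In the edgeR test described below, 6 of the 9 NK genes were called higher, all of them Klr receptor genes. Ncr1 (log2 fold change 0.01), Gzma (-0.52) and Prf1 (0.05) were not called. Of the 4 CD8 T cell genes, Crtam was called higher, and Cd8a, Cd8b1 and Gzmk were not called. The cKO replicate 2 library had the lowest depth, the largest share of 1 transcript (Gm42418, 9.22% of its reads against 2.55% to 4.26% elsewhere) and the highest monocyte and macrophage markers (85.9 CPM against 25.9 to 45.9). In these bulk libraries, fewer cells of a type and less RNA per cell cannot be told apart.

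Among the transporter genes, 4 rose and 2 fell in cKO cells. The genes that rose were Slc1a5 and Slc38a1, which encode glutamine carriers, Slc7a8, an amino acid exchanger light chain, and Slc39a6, a zinc importer. Those that fell were Slc30a4, which loads zinc into vesicles, and Slc39a4, a zinc importer. In edgeR's quasi-likelihood test, with Benjamini-Hochberg adjustment over the 15968 tested genes and a threshold of 0.05, 6 of 44 tested members (13.6%) were called, beside 6.44% of all genes (2.79% higher and 3.64% lower). The Slc30a2 and Slc36a3 counts were too low to be tested. At an unadjusted p under 0.05 there were 10 higher and 6 lower, 36.4% of the tested members beside 21.5% of all genes (11.1% higher and 10.4% lower). The libraries of the 2 groups did not overlap in 16 of the 44, 10 with cKO above and 6 with WT above (36.4%, beside 21% of all genes, 10.3% and 10.7%). No test was made of whether these shares differ.

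**Figure D1:**
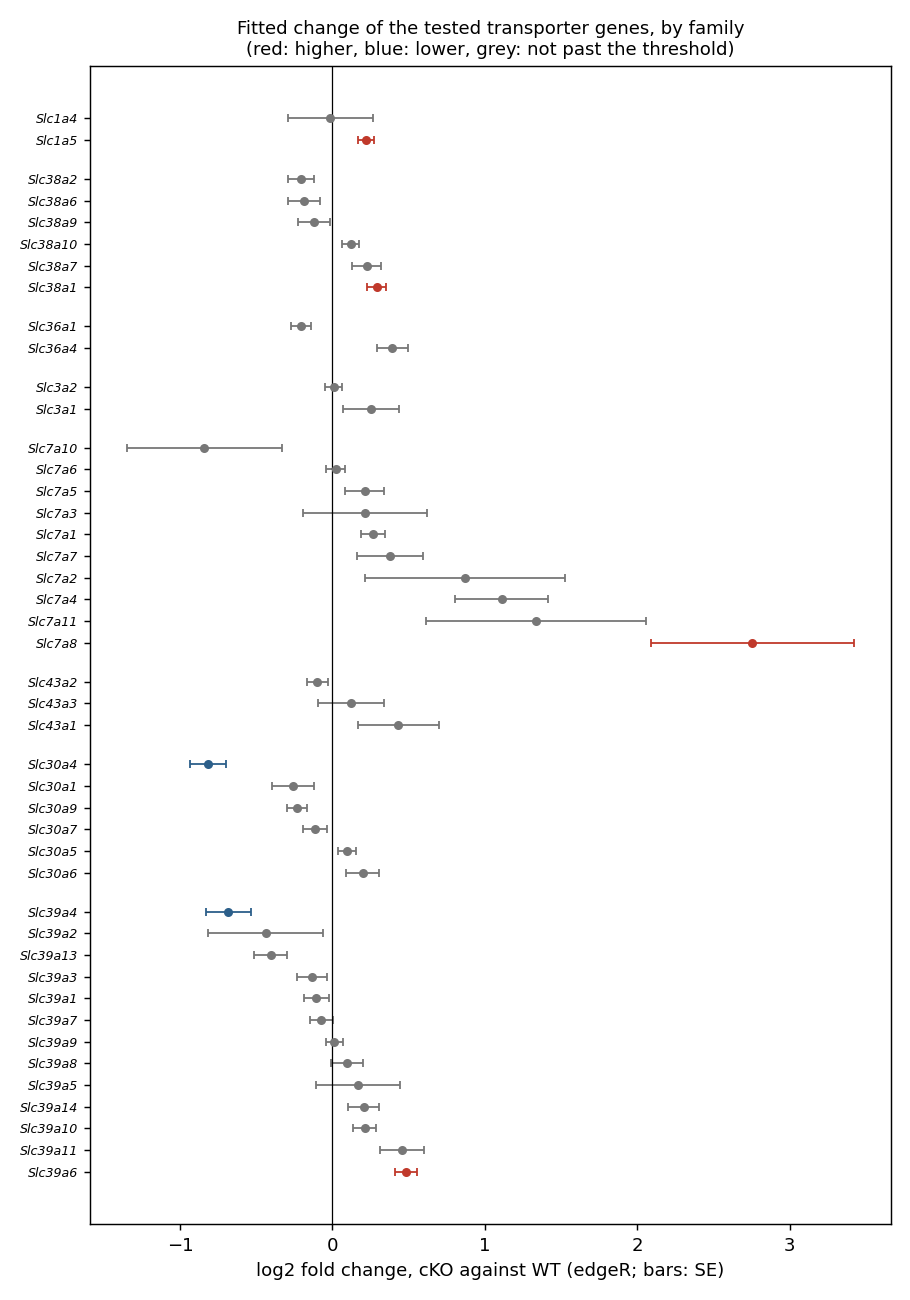
Fitted log2 fold change of each of the 44 tested transporter genes, cKO against WT, on the horizontal axis, with bars of 1 SE, grouped by family. Changes of 37 genes lay within 0.5 of 0, and the 6 past the threshold are coloured, red for higher and blue for lower.

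Most changes were small. In 37 of the 44 the fitted log2 fold change was under 0.5 in size, as it was in 85.3% of all genes. The median was 0.11, beside 0.01 over all genes. The sign was positive in 18 of 25 tested genes of the amino acid families (72%, beside 52.2% of all genes), where edgeR called 3 higher and 0 lower. Of these 25, 7 were higher and 2 lower before adjustment (p under 0.05). The DESeq2 test called 6 higher and 0 lower there, and limma voom 5 and 0, beside 4.94% higher and 5.49% lower of all genes with DESeq2 (10.4% in all) and 5.02% and 5.81% with voom (10.8% in all). In the zinc families, 9 of 19 were positive, and edgeR called 1 higher and 2 lower, DESeq2 2 and 4, and voom 1 and 4. Summed over the amino acid families, the level was 1614 to 1682 CPM in cKO and 1529 to 1577 in WT, without overlap. Without Slc1a5 and Slc38a1 it was 1087 to 1150 and 1082 to 1132, with overlap. Over the zinc families it was 846 to 940 and 903 to 966, with overlap. The 2 zinc families differed in this. The Slc30a sum was 302 to 352 CPM in cKO and 380 to 408 in WT, without overlap. The Slc39a sum was 518 to 588 and 523 to 560, with overlap.

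Levels of different genes were compared as CPM per kilobase of annotated exon. On this scale Slc39a7, a ZIP protein that releases zinc from the endoplasmic reticulum, and Slc1a5 were the most abundant, at 54.1 to 66.4 and 53.1 to 65.9 over the 7 libraries, ranges that overlap. The annotated transcript Gm20427 overlaps Slc39a7 on the same strand, and how reads from the overlap were counted is unknown. The CD98 heavy chain gene Slc3a2 followed at 35.1 to 39.6, below both and above all other members. Next came Slc38a10 (25.3 to 29.4) and Slc38a2 (22.5 to 31.1), which did not differ beyond their spread, and then Slc39a1 (17.1 to 21.5), Slc39a6 (14.04 to 21.3), Slc7a5 (12.9 to 20.3), Slc38a1 (12.6 to 17.2) and Slc7a6 (12.6 to 14.5), each overlapping its neighbour. From Slc43a2 to Slc38a6, the members from rank 11 to rank 33, levels per length lay between 1.18 (Slc3a1) and 14.5 (Slc43a2) over all libraries. The remaining 13 were nearly all under 1.1 in every library, the exception being Slc7a8 with 2.64 in cKO replicate 2. They include Slc7a11 (0.00849 to 0.206), the cystine importer light chain, and the cationic amino acid transporter gene Slc7a2 (0.0156 to 0.166).

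**Figure D2:**
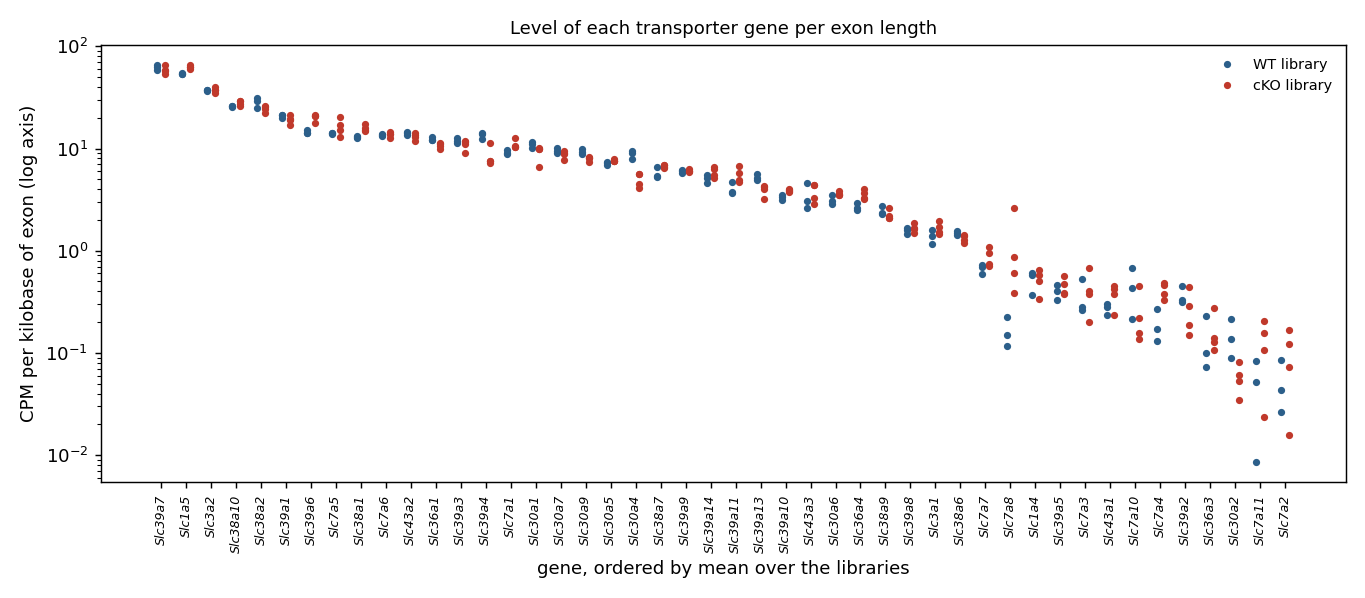
Level of each of the 46 transporter genes in every library, as CPM per kilobase of exon on a log axis, ordered by the mean, with WT libraries in blue and cKO libraries in red. Slc39a7 and Slc1a5 stand at the top, and all cKO libraries of Slc7a8 lie above its WT libraries.

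Of the glutamine carriers, Slc1a5 and Slc38a1 rose. Slc1a5 encodes ASCT2, a sodium-dependent exchanger of glutamine and other small neutral amino acids (chromosome 7, 16781340 to 16798274 on mm10). Its CPM values were 260.2, 251, 265 and 275 in cKO (replicates 2, 3, 7 and 12, the order used throughout) against 226, 229 and 222 in WT (replicates 10, 14 and 19). All cKO libraries were above all WT libraries by a small margin: the means were 263 ± 9.80 and 225 ± 3.43 CPM (SD, n = 4 and 3), which gave a log2 fold change of 0.22 with an SE of 0.05, the error given after ± for every fold change (adjusted p = 0.0387). Slc38a1 encodes SNAT1, a sodium-coupled carrier of neutral amino acids (chromosome 15, 96571418 to 96642913). It had 297, 275, 262 and 258 CPM in cKO and 222, 217 and 231 in WT. Again the groups did not overlap, with means of 273 ± 17.5 and 223 ± 7.24 CPM and a log2 fold change of 0.29 ± 0.06 (adjusted p = 0.0268).

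Neither glutamine carrier call was firm. One alternative fit took as a covariate the mean log2 CPM, in each library, of the tested markers of B cells, monocytes and dendritic cells. Slc1a5 missed the threshold when cKO replicate 7 (adjusted p = 0.0834) or 12 (0.0681) was left out. Leaving out any WT library, replicate 10 (0.138), 14 (0.127) or 19 (0.135), had the same outcome. The threshold was also missed with total counts alone (0.0813), no filter (0.0789) and the marker covariate (0.105), in a range of 0.00176 to 0.138. Slc38a1 missed it without cKO replicate 3 (0.0614), without WT replicate 10 (0.11), 14 (0.143) or 19 (0.0656) and with the marker covariate (0.121), in a range of 0.001 to 0.143. The log2 fold changes stayed between 0.20 and 0.24 for Slc1a5 and between 0.25 and 0.32 for Slc38a1.

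The neighbour of Slc38a1, Slc38a2, was not past the threshold. Slc38a2 encodes SNAT2, a sodium-coupled carrier best known for its induction when amino acids run short, and lies 44.5 kb from Slc38a1. It had 199, 214, 225 and 233 CPM in cKO and 222, 275 and 257 in WT, with overlap and a log2 fold change of -0.21 ± 0.08 (adjusted p = 0.192). The other neutral carrier of the Slc1a family, Slc1a4, was scarce, at 1.33 to 2.56 CPM in cKO and 1.46 to 2.39 in WT (log2 fold change -0.01 ± 0.28). Slc38a6 (9.23 to 11.2 CPM in cKO, 11.1 to 12.3 in WT) and Slc38a10 (169 to 189 and 162 to 169) had adjusted p values of 0.359 and 0.282.

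**Figure D3:**
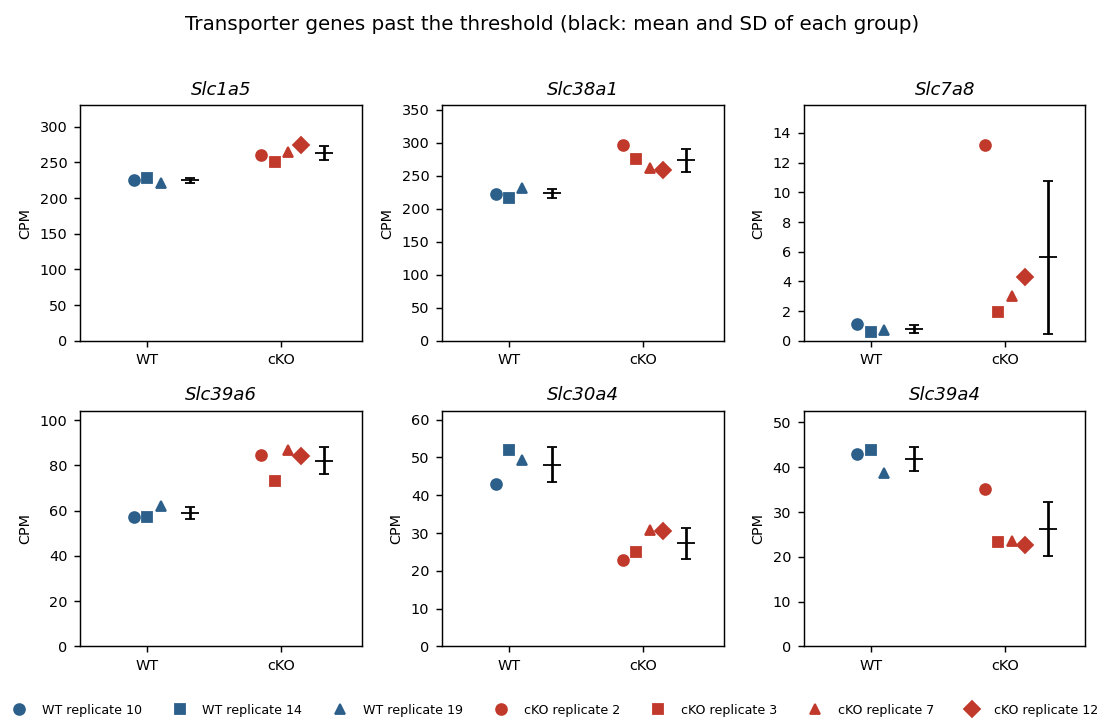
CPM of the 6 transporter genes past the threshold in each library, WT in blue and cKO in red, with 1 symbol for each replicate and the group mean with its SD in black. The groups do not overlap in any of the 6, Slc7a8 in cKO replicate 2 (13.2 CPM) lies far above the other cKO libraries, and Slc39a4 in the same library (35.2 CPM) lies closest to WT.

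The CD98 heavy chain gene and those of its abundant light chains were not past the threshold. Slc3a2 had 132, 124, 139.8 and 131 CPM in cKO and 131, 133 and 129 in WT. The log2 fold change was 0.01 ± 0.06, with a 95% interval of -0.12 to 0.13. Slc7a5 encodes LAT1, the leucine carrier of activated T cells. It had 56.8, 47.9, 62.7 and 75.4 CPM in cKO and 52.5, 53.2 and 51.6 in WT, where cKO replicate 12 was highest and cKO replicate 3 below all WT libraries (log2 fold change 0.21 ± 0.13, interval -0.08 to 0.50, adjusted p = 0.397). Slc7a6, which encodes a light chain that exchanges cationic for neutral amino acids, had 57.8 to 66.3 CPM in cKO and 60.2 to 63.6 in WT (0.02 ± 0.06, adjusted p = 0.894). Its relative Slc7a7 had 2.37 to 3.58 and 1.98 to 2.40 CPM (0.38 ± 0.21, adjusted p = 0.357). On the opposite strand, Oxa1l overlaps Slc7a7 and Gm20388 overlaps Slc7a5.

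Slc7a8 had the largest fitted fold change among the 44 tested members, from a low level. It encodes LAT2, a light chain that exchanges neutral amino acids of a broad range of sizes (chromosome 14, 54722209 to 54781946). It had 13.2, 1.91, 3.04 and 4.31 CPM in cKO and 1.12, 0.59 and 0.748 in WT. All cKO libraries were above all WT libraries, and cKO replicate 2 was 3 times or more above the rest of its group, with 226 reads against 46 to 91 in the other cKO libraries. The means were 5.62 ± 5.15 and 0.82 ± 0.273 CPM (SD), which gave a log2 fold change of 2.75 with an SE of 0.67 (adjusted p = 0.0408), or 6.75-fold. Leaving out cKO replicate 2 gave a log2 fold change of 1.90 (adjusted p = 0.0154). It missed the threshold without cKO replicate 12 (0.0565), without WT replicate 10 (0.106), 14 (0.175) or 19 (0.151) and with the marker covariate (log2 fold change 2.03, adjusted p = 0.122), in a range of 3.3e-05 to 0.175.

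Some markers of other cells were also highest in cKO replicate 2. The monocyte and macrophage markers, 11 of 11 in the table and none called, summed to 85.9 CPM in cKO replicate 2, 25.9 to 45.9 in the other cKO libraries and 27.7 to 31.9 in WT. Adgre1 had 14.4 CPM in cKO replicate 2 and 0.118 to 2.56 elsewhere, and Itgam 34.6 against 0.852 to 7.20. Another 4 genes of the list were there within or close to the range of the rest: Csf1r had 18.0 CPM in cKO replicate 2 and 14.6 to 18.0 elsewhere, Cd68 9.35 against 5.92 to 9.07, Lyz2 5.2 against 0.709 to 6.98 and Cd14 1.29 against 0.591 to 1.78. The complement genes C1qa, C1qb and C1qc were under 0.6 CPM in every library. The mast cell and basophil markers, 5 of 5 in the table, summed to 44.4 to 92.5 CPM in cKO, highest in replicate 2, and to 35.2 to 40.5 in WT. Nearly all of that sum was Kit, and Ms4a2 was at 0 in 4 of the 7 libraries. In cKO replicate 12 the monocyte and macrophage sum was the lowest of the 7 libraries (25.9 CPM). Slc7a8 had 4.31 CPM there, above all libraries but cKO replicate 2. The part of these other cells in the Slc7a8 result was not tested.

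Of the light chains that are not T cell staples, Slc7a11 and Slc7a10 were too scarce for a firm value. Slc7a11 had 0.331 to 2.86 CPM in cKO and 0.118 to 1.16 in WT, with overlap and a log2 fold change of 1.33 ± 0.72 (adjusted p = 0.334). Slc7a10, which encodes a carrier of small neutral amino acids, had 0.291 to 0.955 and 0.451 to 1.43 CPM (adjusted p = 0.387). The heavy chain Slc3a1, whose usual partner Slc7a9 had 1 read in all, had 3.30 to 4.41 CPM in cKO and 2.67 to 3.62 in WT (log2 fold change 0.25 ± 0.19, adjusted p = 0.489). On the opposite strand, Lrp3 overlaps Slc7a10 and Prepl overlaps Slc3a1.

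Carriers of cationic amino acids did not pass the threshold in the edgeR fit without a covariate. Slc7a1, which encodes the arginine and lysine carrier CAT1, had 121, 121, 120 and 145 CPM in cKO and 102, 103 and 111 in WT. The groups did not overlap, with a log2 fold change of 0.27 ± 0.08 (adjusted p = 0.0874). It was past the threshold with DESeq2 (adjusted p = 0.0347), limma voom (0.0314) and the marker covariate (0.0304), in a range of 0.0304 to 0.265. Slc7a4, a relative of the cationic carriers, had 1.93, 1.996, 1.56 and 1.37 CPM in cKO and 0.541, 1.11 and 0.709 in WT, without overlap (log2 fold change 1.11 ± 0.31, adjusted p = 0.0674). DESeq2 (0.0392) and limma voom (0.0274) called it, in a range of 0.0274 to 0.214. Slc7a4 overlaps P2rx6 on the opposite strand, and with the use of strand in counting unknown, reads from the overlap cannot be assigned. Slc7a2 (0.142 to 1.52 CPM in cKO, 0.243 to 0.774 in WT) and Slc7a3 (0.76 to 2.54 and 1.01 to 2.01) encode the other cationic carriers and overlapped between groups.

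Genes of lysosomal amino acid export and sensing were not past the threshold. Slc38a9, which encodes the lysosomal arginine sensor that signals to mTORC1, had 36.7, 44.2, 35.2 and 34.8 CPM in cKO and 37.9, 46.2 and 38.9 in WT (log2 fold change -0.12 ± 0.11, adjusted p = 0.576). Slc36a1, which encodes a proton-coupled exporter of small amino acids on lysosomes, had 55.9 to 63.2 CPM in cKO and 67.8 to 73.4 in WT. The groups did not overlap, and the log2 fold change was -0.21 ± 0.06 (adjusted p = 0.0999). Slc36a4, a proton-linked relative with high affinity for proline and tryptophan, was placed the other way, at 21.0 to 26.3 CPM in cKO and 16.4 to 19.4 in WT (0.39 ± 0.10, adjusted p = 0.0575). DESeq2 called Slc36a4 (0.018), in a range of 0.018 to 0.208. Slc38a7, which encodes a lysosomal glutamine and asparagine exporter, had 26.5 to 28.8 and 21.8 to 27.4 CPM (0.22 ± 0.09, adjusted p = 0.205).

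The Slc43a genes showed 0 calls with edgeR, DESeq2 and limma voom, and 0 at an unadjusted p under 0.05. Slc43a2, which encodes LAT4, a facilitated carrier of large neutral amino acids, had 118 to 143 CPM in cKO and 136 to 146 in WT (log2 fold change -0.10 ± 0.07, adjusted p = 0.476). Slc43a1, its relative LAT3, had 1.33 to 2.57 and 1.35 to 1.74 CPM (0.43 ± 0.27, adjusted p = 0.402). Slc43a3, a purine nucleobase carrier despite its family name, had 12.9 to 19.8 and 11.7 to 20.8 CPM (0.12 ± 0.22, adjusted p = 0.803).

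Of the zinc exporters, Slc30a4 fell. It encodes ZnT4, which moves zinc into endosomes and secretory vesicles and whose loss in the lethal milk mouse leaves milk short of zinc (chromosome 2, 122681233 to 122702663). It had 22.8, 24.9, 30.8 and 30.6 CPM in cKO and 42.9, 51.9 and 49.4 in WT. The groups were well apart, with means of 27.3 ± 4.05 and 48.0 ± 4.66 CPM (SD, n = 4 and 3). The log2 fold change was -0.82 ± 0.12 (adjusted p = 0.00415), a level 0.568 times that of WT. The call held in all 16 alternative fits, with adjusted p between 3.22e-08 and 0.0286. The non-coding transcript 4930417H01Rik overlaps the gene on the opposite strand.

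No other tested exporter gene was past the threshold in the same fit. Slc30a1, which encodes the zinc exporter of the plasma membrane and is switched on by zinc itself through the metal-sensing factor Mtf1, had 34.4, 53.2, 52.3 and 52.3 CPM in cKO and 53.5, 61.4 and 57.8 in WT. Replicate 2 lay far below the other cKO libraries, which came close to the lowest WT library (log2 fold change -0.26 ± 0.14, adjusted p = 0.333). Without cKO replicate 2 its log2 fold change was -0.13. Slc30a9, a mitochondrial zinc transporter gene, had 90.7 to 103 CPM in cKO and 110 to 123 in WT (-0.23 ± 0.06, adjusted p = 0.069), and was called by DESeq2 (0.0228) and limma voom (0.0248), in a range of 0.0228 to 0.235. Slc30a5 and Slc30a6, whose products pair in the early secretory pathway, had 54.8 to 58.1 and 10.7 to 11.7 CPM in cKO against 50.2 to 53.8 and 8.74 to 10.7 in WT (adjusted p = 0.384 and 0.331). Slc30a7, of the same compartment, had 85.1 to 106 and 101 to 112 CPM (adjusted p = 0.444). Slc30a2, a vesicle zinc transporter gene too scarce to test, had 0.125 to 0.292 CPM in cKO and 0.315 to 0.774 in WT, 3 to 5 reads and 8 to 20 reads in a library.

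Some zinc-handling genes, Slc30a1 among them, are known for metal response elements, the sites that Mtf1 binds when zinc is plentiful. The RefSeq promoter table on GRCm38.p6, with 250 bases before and 50 after a gene's start, held 36 of the 46 members. Its windows for the called gene Slc30a4, for the classic zinc-induced gene Slc30a1 and for Slc7a8 are shown 5′ to 3′ on the gene's strand, since these are the exporter that fell, its reference among exporters and the member with the largest fold change. Capitals mark each match on either strand to the core of that element, TGCACNC or TGCGCNC, where N is any base.
Slc30a4: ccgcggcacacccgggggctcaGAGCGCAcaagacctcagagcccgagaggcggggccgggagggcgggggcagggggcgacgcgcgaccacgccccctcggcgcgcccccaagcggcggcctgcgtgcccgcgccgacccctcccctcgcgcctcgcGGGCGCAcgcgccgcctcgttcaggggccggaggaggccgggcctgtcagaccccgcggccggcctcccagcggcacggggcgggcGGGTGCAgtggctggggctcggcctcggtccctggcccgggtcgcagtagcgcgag
Slc30a1: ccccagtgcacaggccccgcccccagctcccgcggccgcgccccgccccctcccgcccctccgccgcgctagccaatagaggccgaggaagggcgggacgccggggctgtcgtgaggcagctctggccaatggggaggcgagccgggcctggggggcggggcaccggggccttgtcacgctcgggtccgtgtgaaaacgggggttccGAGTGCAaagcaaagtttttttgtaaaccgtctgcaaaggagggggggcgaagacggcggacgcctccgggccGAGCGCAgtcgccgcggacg
Slc7a8: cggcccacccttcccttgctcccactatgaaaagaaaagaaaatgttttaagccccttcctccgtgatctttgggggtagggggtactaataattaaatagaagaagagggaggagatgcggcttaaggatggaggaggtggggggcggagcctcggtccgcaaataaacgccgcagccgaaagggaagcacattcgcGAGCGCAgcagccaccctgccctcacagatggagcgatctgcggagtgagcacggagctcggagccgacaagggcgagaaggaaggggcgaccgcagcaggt
The windows are chr2:122702614-122702913 on the minus strand, chr1:191906531-191906830 on the plus strand and chr14:54781837-54782136 on the minus strand. Slc30a4 held 3 matches, which began at bases -228, -92 and -6 from the start, Slc30a1 held 2, at -43 and 31, and Slc7a8 held 1, at -52. No matches overlapped in these windows. At least 1 match stood in 30.6% of the 36 members' windows and in 25.6% of 27025 gene promoters of the same length, so a match is common. Among the exporter genes, Slc30a2 and Slc30a5 also held matches, and of these 4 genes Slc30a4 was past the threshold, Slc30a1 and Slc30a5 were not, and Slc30a2 was not tested.

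The windows were also rich in CpG. Slc30a4 held 46 CpG pairs in 300 bases, the most of the 36, Slc30a1 held 36 and Slc7a8 held 20. The median was 20.5 over the 36 and 14 over 16209 promoters of protein-coding genes. The core of the C/EBP-ATF response element through which Atf4 acts, TGATGNAA on either strand, stood in 3 member windows, those of Slc1a4, Slc7a7 and Slc7a11, and in 4.06% of all promoters. Those 3 genes were not past the threshold. The E-box CACGTG stood in 4 member windows (Slc30a5, Slc36a1, Slc38a7 and Slc43a1) and in 7.24% of all promoters. No match in such a window says only that these letters are not in it.

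Zinc importers moved in both directions. Slc39a6 encodes ZIP6, a plasma membrane importer of the LIV-1 subfamily that works as a complex with ZIP10 (chromosome 18, 24579881 to 24603817). It had 84.4, 73.3, 86.6 and 84.2 CPM in cKO and 57.2, 57.3 and 61.9 in WT. The lowest cKO library was above the highest WT library, with means of 82.1 ± 6.01 and 58.8 ± 2.70 CPM (SD), and the log2 fold change was 0.48 ± 0.07 (adjusted p = 0.00489), or 1.40-fold. The call held in all 16 alternative fits, with adjusted p between 8.96e-07 and 0.0381. The gene overlaps Elp2 on the opposite strand.

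Slc39a4 went the other way. It encodes ZIP4, the importer that takes up dietary zinc in the gut and whose loss causes acrodermatitis enteropathica in humans (chromosome 15, 76612383 to 76617384). It had 35.2, 23.3, 23.5 and 22.6 CPM in cKO and 42.97, 43.8 and 38.8 in WT. The other 3 cKO libraries lay close together and replicate 2 stood between them and WT, without overlap. The means were 26.1 ± 6.04 and 41.8 ± 2.67 CPM (SD), and the log2 fold change was -0.68 ± 0.15 (adjusted p = 0.0255). It was -0.86 with cKO replicate 2 left out (adjusted p = 0.000279). It missed the threshold without cKO replicate 3 (adjusted p = 0.065), 7 (0.0605) or 12 (0.0532) or WT replicate 10 (0.0977), 14 (0.114) or 19 (0.065), in a range of 0.000279 to 0.114 over the alternatives. With the marker covariate it was -0.89 (0.0056).

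The other ZIP genes were not past the threshold with edgeR after its filter on low counts. Slc39a10, the partner of Slc39a6, had 24.5, 22.9, 23.2 and 23.8 CPM in cKO and 21.5, 19.04 and 20.6 in WT, without overlap (log2 fold change 0.21 ± 0.07, adjusted p = 0.137). Slc39a11 had 16.0 to 22.6 and 12.5 to 15.7 CPM (0.46 ± 0.14, adjusted p = 0.101) and was called by DESeq2 (0.0425), in a range of 0.0425 to 0.297. Sstr2 and Cog1 overlap Slc39a11 on the opposite strand. Slc39a13, which encodes a Golgi zinc exporter needed in connective tissue, had 15.7 to 21.2 CPM in cKO and 24.2 to 27.7 in WT (-0.41 ± 0.11, adjusted p = 0.0611). DESeq2 (0.0162), limma voom (0.0309) and edgeR with no filter (0.0435) called Slc39a13, in a range of 0.0162 to 0.221. It overlaps the proteasome gene Psmc3 on the opposite strand.

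Abundant ZIP genes were among those not past the threshold. Slc39a7 had 140, 147, 153 and 172 CPM in cKO and 152, 162 and 168 in WT (log2 fold change -0.07 ± 0.08, adjusted p = 0.644). Slc39a1, an importer of the plasma membrane, had 40.4 to 50.7 and 46.7 to 50.7 CPM (adjusted p = 0.512). Slc39a14, which also carries iron and manganese, had 54.1 to 69.2 and 48.3 to 58.8 CPM (0.20 ± 0.10, adjusted p = 0.296). Slc39a8, which carries zinc and manganese, had 11.5 to 14.3 and 11.1 to 12.7 CPM (0.10 ± 0.10, adjusted p = 0.656). The remaining Slc39a members, Slc39a2, Slc39a3, Slc39a5 and Slc39a9, had log2 fold changes between -0.44 and 0.17.

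Transporters that work in pairs or share a substrate were compared as the ratio of their levels per length in each library, for 8 pairs that were chosen after the values were known. Slc38a1 stood at 0.765, 0.659, 0.597 and 0.568 of Slc38a2 in cKO and at 0.512, 0.405 and 0.462 in WT. Every cKO ratio was above every WT ratio (exact two-sided permutation p = 0.0286, the smallest that 35 splits allow). The Benjamini-Hochberg value over the 8 ratios was 0.152, which fails the threshold. A lone ratio at the smallest possible p could not have passed after this adjustment, so the failure does not decide whether the ratio differs. The ratio of Slc39a6 to Slc39a10 was 4.78 to 5.59 in cKO and 3.97 to 4.50 in WT, also without overlap (exact permutation p = 0.0571, adjusted 0.152). The ratio of Slc7a8 to Slc3a2 was 0.0109 to 0.0703 in cKO and 0.00312 to 0.00603 in WT (exact permutation p = 0.0571, adjusted 0.152). Slc38a1, Slc39a6 and Slc7a8 were already called in the same libraries, so these ratios are not independent of those calls.

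The remaining 5 ratios overlapped. Slc7a5 stood at 0.368 to 0.548 of Slc3a2 in cKO and 0.380 to 0.382 in WT, so the light chain and the heavy chain kept nearly the same ratio in the 3 WT libraries while the cKO libraries spread on both sides (exact permutation p = 0.257, adjusted 0.411). Slc7a6 stood at 0.337 to 0.398 and 0.359 to 0.374 of Slc3a2 (exact permutation p = 0.886). Slc7a7 stood at 0.0193 to 0.0307 and 0.0158 to 0.0199 of it. Slc1a5 was 3.24 to 4.66 times Slc7a5 in cKO and 3.82 times it in each WT library (exact permutation p = 0.714). Slc30a5 was 1.98 to 2.29 and 2.07 to 2.60 times Slc30a6.

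**Figure D4:**
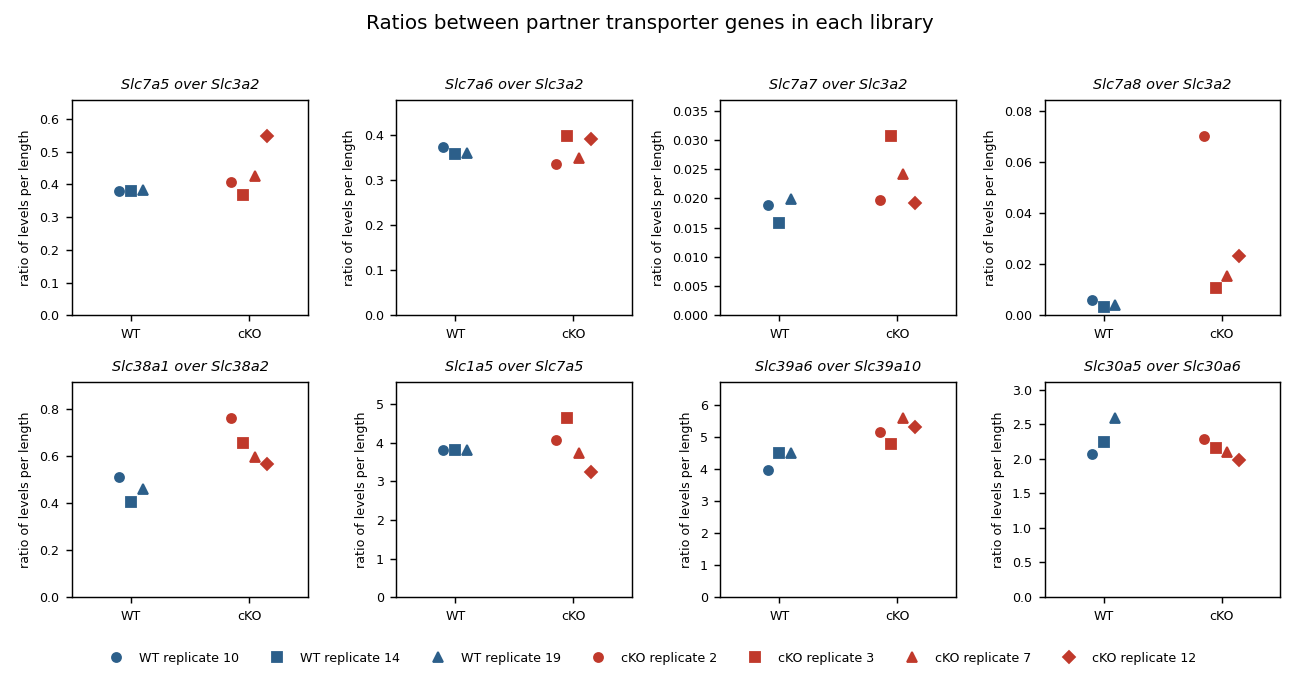
Ratio of levels per exon length between paired transporter genes in each library, WT in blue and cKO in red, with 1 symbol for each replicate and each vertical axis starting at 0. The pairs were chosen after the values were known. The ratio of Slc38a1 to Slc38a2 does not overlap between groups (0.568 to 0.765 in cKO against 0.405 to 0.512 in WT). Neither do those of Slc39a6 to Slc39a10 and Slc7a8 to Slc3a2. Each of these fails the threshold after adjustment (exact permutation test, adjusted 0.152), as a lone ratio at the smallest possible p would also do. The ratios of Slc7a5 and Slc7a6 to Slc3a2 overlap.

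Lists of related genes were read from the same fit. Of 42 genes of amino acid sensing and mTORC1, 2 rose and 0 fell with edgeR (6 and 1 at an unadjusted p under 0.05, 4 and 0 with DESeq2, 7 and 0 with limma voom), with a median log2 fold change of 0.04 beside 0.01 over all genes. These are 4.76% called and 16.7% at the unadjusted p, beside 6.44% and 21.5% of all genes. Of all genes, DESeq2 called 10.4% and limma voom 10.8%. Both called genes encode partners in folliculin complexes, which act on the Rag GTPases that carry the amino acid signal. Flcn had 92.2 to 105 CPM in cKO and 71.6 to 77.8 in WT (log2 fold change 0.38 ± 0.06, adjusted p = 0.0081). Fnip2 had 3.73 to 6.13 and 2.08 to 2.21 CPM (1.11 ± 0.21, adjusted p = 0.0142). The groups did not overlap in either. Fnip1, which encodes the alternative partner of folliculin, was not past the threshold, at 36.5 to 43.7 CPM in cKO and 35.0 to 45.1 in WT (0.10 ± 0.10, adjusted p = 0.651). Flcn missed the threshold without WT replicate 10 (adjusted p = 0.0501, in a range of 1.66e-05 to 0.0501). Fnip2 missed it without WT replicate 10 (0.0653), 14 (0.0765) or 19 (0.0579) and with the marker covariate (0.0512), in a range of 0.000196 to 0.0765.

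Among 41 tested enzymes of amino acid metabolism, 1 rose and 3 fell (1 and 5 at an unadjusted p under 0.05), with a median of 0.04. These are 9.76% and 14.6% of the list, beside 6.44% and 21.5% of all genes. Arg1 encodes arginase, which breaks down arginine. It had 12.4, 4.07, 5.47 and 5.68 CPM in cKO and 0.928, 1.01 and 1.30 in WT, highest in the library with the most monocyte and macrophage markers. The library with the lowest sum of those markers, cKO replicate 12, had 5.68 CPM, above all libraries but cKO replicate 2. The log2 fold change was 2.67 ± 0.40 (adjusted p = 0.00499), and 2.23 (0.000733) without cKO replicate 2, in a range of 3.37e-10 to 0.0384. With the marker covariate the Arg1 log2 fold change was 2.26 (adjusted p = 0.0154). The part of other cells in the Arg1 result was not tested. Gclc and Gclm encode the subunits of the enzyme that makes the first bond of glutathione from glutamate and cysteine. Gclc had 80.2 to 92.5 CPM in cKO and 104 to 119 in WT (-0.37 ± 0.07, adjusted p = 0.0135), and Gclm 23.7 to 25.3 and 31.1 to 36.2 (-0.45 ± 0.07, adjusted p = 0.00726).

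Ggt1 encodes the surface enzyme that breaks glutathione down. It had 0.409, 1.37, 0.304 and 0.237 CPM in cKO and 3.17, 3.12 and 3.39 in WT (log2 fold change -2.43 ± 0.48, adjusted p = 0.0182). The cKO replicate 3 library was the closest to WT, and without it the log2 fold change was -3.35 (adjusted p = 0.00066). Ggt1 missed the threshold without WT replicate 10 (0.0661), 14 (0.0741) or 19 (0.0698) and with the marker covariate (0.071), in a range of 8.31e-05 to 0.0741. Gclc missed it without WT replicate 10 (0.073) or 14 (0.0682), in a range of 0.000115 to 0.073.

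Of 21 tested amino acid transporters outside the 8 families, 0 rose and 2 fell with edgeR (6 and 2 at an unadjusted p under 0.05, 1 and 2 with DESeq2, 2 and 2 with limma voom). These are 9.52% called and 38.1% unadjusted with edgeR, beside 6.44% and 21.5% of all genes. Of all genes, DESeq2 called 10.4% and limma voom 10.8%. Slc6a19, a neutral amino acid carrier known from gut and kidney, had 0.292, 0.125, 0.26 and 0.0947 CPM in cKO and 1.70, 1.66 and 2.28 in WT. The groups were far apart at a very low level (log2 fold change -3.28 ± 0.37, adjusted p = 0.00104). Slc16a10, a carrier of aromatic amino acids, had 0.758 to 1.58 CPM in cKO and 3.61 to 4.06 in WT (-1.68 ± 0.25, adjusted p = 0.00454). Both calls held in all 16 alternative fits.

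Among 16 tested genes of zinc and other metal handling, 1 rose and 0 fell (5 and 0 at an unadjusted p under 0.05, 3 and 0 with DESeq2, 2 and 0 with limma voom), with a median of 0.19. These are 6.25% called and 31.2% unadjusted with edgeR, beside 6.44% and 21.5% of all genes, of which DESeq2 called 10.4% and limma voom 10.8%. The gene was Slc11a2, which encodes the divalent metal importer DMT1, with 49.2 to 57.5 CPM in cKO and 38.7 to 41.0 in WT (log2 fold change 0.44 ± 0.07, adjusted p = 0.0064). The metallothionein genes, which bind zinc and are switched on by it, were not past the threshold. Mt1 had 34.0, 24.3, 18.5 and 33.8 CPM in cKO and 20.5, 17.6 and 11.1 in WT, with overlap (0.75, adjusted p = 0.117). Mt2 had 16.5, 12.4, 9.24 and 16.5 CPM in cKO and 8.90, 6.35 and 2.99 in WT, without overlap (1.16, adjusted p = 0.0752). Mt1 and Mt2 were named after their values were seen. The zinc-sensing factor gene Mtf1 had 67.7 to 72.9 and 65.9 to 72.1 CPM.

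**Figure D5:**
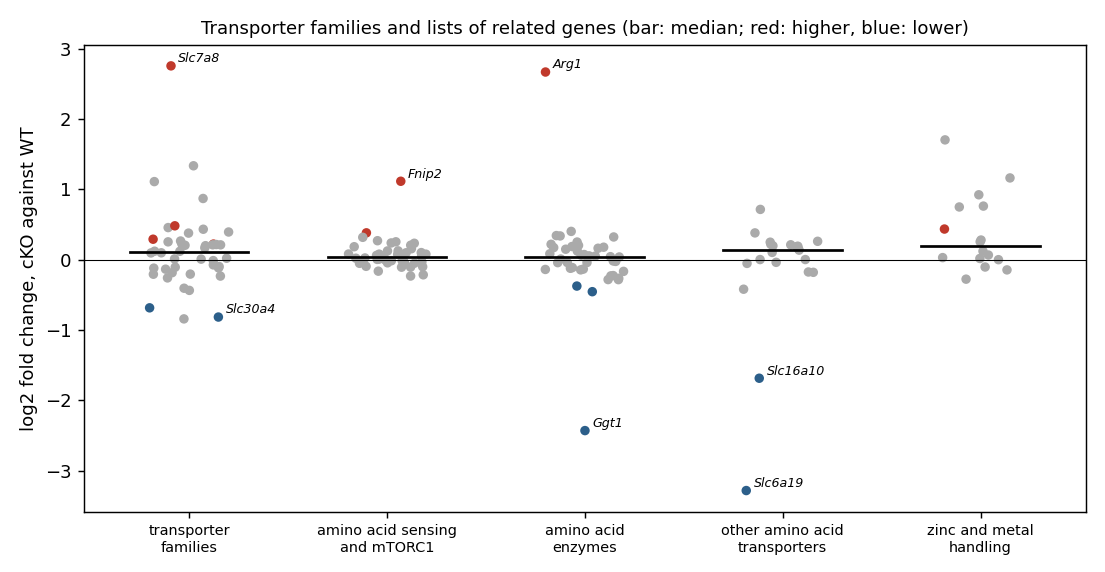
Log2 fold changes, cKO against WT, of the tested transporter genes and of 4 lists of related genes, 1 point a gene with the list median as a bar. Medians lie between 0.04 and 0.19, and the called genes (red higher, blue lower) with the largest changes are named.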

How the data were processed

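RNA of 4 cKO and 3 WT libraries was analysed from 1 deposited table that holds raw counts for each Ensembl gene, as its whole numbers and unequal library totals show. A stranded kit followed selection of mRNA, per the labels' protocols. The submitters' processing notes name bcl2fastq 2.17 and build mm10, and the sources used here give no aligner, counting tool or use of strand. GENCODE M21 symbols matched 37693 of 39017 rows.

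Low genes were removed by filterByExpr, and edgeR 4.0.16 (R 4.3.3) tested the rest with TMM scaling. SE values came from the F statistic, and levels are TMM-scaled CPM. Alternatives were RLE and upper-quartile factors, total counts alone, DESeq2 1.42.0, limma 3.58.1 voom with quality weights, no filter, CPM of at least 1 in 3 libraries, the marker covariate, leaving out each library in turn, and 0.1 as threshold. Removal of Gm42418 was added after the data were seen. Named genes were a fixed list of members, all members at an unadjusted p under 0.05, non-overlapping members with an absolute log2 fold change of at least 0.5, the 2 most abundant of each family and called list genes. Other members are given for completeness. Members and lists were chosen with earlier results of these data known. No library was a duplicate, since the lowest mean chi-square per gene between libraries was 6.31.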

Additional observations from a re-analysis of the deposited data

Results flagged for a closer look

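In 4 of the 46 transporter genes, 1 of the 4 cKO libraries stood apart from the other 3 by a Dixon gap test at its 95% level, which chance alone gives in about 1 of 20 groups. For Slc30a1 it was cKO replicate 2, with 34.4 CPM beside 52.3 to 53.2. Slc39a4 had 35.2 CPM in the same library and 22.6 to 23.5 in the others, and Slc30a5 had 58.1 against 54.8 to 55.2. For Slc7a1 it was cKO replicate 12, with 145 CPM beside 119.9 to 121. The limit used was that for groups of 4, and the 3 WT libraries were not checked. Slc7a8 in cKO replicate 2 did not meet its limit.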

How the results depend on the processing

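No paired analysis was possible because the cKO and WT libraries share no replicate number and the labels give no pairing. All genes called numbered 1028, and 1633 with DESeq2, 1729 with limma voom, 621 with the marker covariate, 1644 at a threshold of 0.1 and 419 to 1065 when 1 library was left out. Members called higher numbered 4, and 8 with DESeq2, 2 with the covariate, 7 at 0.1 and 1 to 4 with 1 library left out. Members called lower numbered 2, and 4 with DESeq2, 4 with voom, 5 at 0.1 and 1 to 2 with 1 library left out (3 with no filter). List genes called numbered 9, and 14 with DESeq2, 18 with voom, 14 at 0.1 and 5 to 13 with 1 library left out. The cause of these shifts was not tested. Slc39a6, Slc30a4 and 5 list genes (Arg1, Gclm, Slc6a19, Slc16a10 and Slc11a2) were past the threshold in all 16 fits. Among the 43 named genes signs turned in 5, none of them called, and outside them in Slc39a9, Slc7a2 and Slc7a3. Slc3a2 (0.01) had -0.00204 with total counts alone, -0.00277 with no filter, -0.0216 with the covariate and -0.0259 to 0.0370 with 1 library left out. Slc1a4 (-0.01) had -0.20 to 0.15, Slc7a6 (0.02) -0.00659 to 0.0549 and Slc43a3 (0.12) -0.0412 to 0.40 with 1 library left out. Slc43a3 had -0.14 with voom and Slc39a7 (-0.07) 0.0193 with the covariate. Depth limits the scarce genes: Slc30a2 had 3 to 20 reads in a library.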
